A study of Homo sapiens with 79 samples.

Results

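The dividing cells of human retinal organoids were taken as the cells with at least 5 reads each in at least 4 of 8 genes of the late cell cycle (MKI67, TOP2A, UBE2C, CENPF, NUSAP1, BIRC5, TPX2 and ASPM). By this rule 138 of 1976 cells were dividing. The organoids came from the H9 human embryonic stem cell (hESC) line carrying a green fluorescent protein reporter at CRX, a photoreceptor transcription factor gene. H9 is an established line, and all groups share the reporter and the same medium, with the kinase inhibitor Y27632 at the start and foetal calf serum, T3, taurine and retinoic acid later. The groups are the ages of the organoids: 1 microfluidic (Fluidigm C1) chip at day 60, 1 at day 90 and 2 at day 200, called chips a and b. A chip captures cells of a limited range of sizes, and how many organoids a chip pooled is not given in the sources used here. The 138 cells were chosen by the reads of the 8 genes, so the levels of these genes, and of genes that move with them, are given as descriptions.

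A dividing cell copies its DNA in S phase, then condenses its chromosomes and builds a spindle in G2 and mitosis. MKI67 coats mitotic chromosomes, TOP2A untangles sister DNA, CENPF sits at kinetochores, NUSAP1, TPX2 and ASPM act on spindle microtubules, UBE2C hands ubiquitin to the anaphase-promoting complex, and BIRC5 is part of the complex of Aurora B. In the developing retina the cells that divide are multipotent progenitors, marked by factors such as RAX, LHX2 and PAX6. They first give rise to ganglion, horizontal and cone cells and later to rods, bipolar cells and Müller glia.

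Genes of mitosis and genes of S phase are known to differ in their promoters. Many mitotic genes carry the cell cycle genes homology region, here searched as TTTGAA, near a CCAAT box, and many S phase genes carry a site for E2F factors, here searched as TTTCCCGC, TTTGGCGC, TTTCGCGC or TTTGCCGC. All letters were searched on both strands of the 300 bases around the RefSeq start of each gene (250 before and 50 after, GRCh38.p14). The promoters of 2 rule genes, of the mitotic cyclin gene CCNB2, and of the S phase genes CDC6 and CLSPN, which load the replicative helicase and guard replication forks, are shown because they hold the letters that set the gene groups apart. Capitals mark the matches. They lie at chr10:128126374-128126673 on the minus strand, chr1:197146620-197146919 on the minus strand, chr15:59104896-59105195 on the plus strand, chr17:40287629-40287928 on the plus strand, and chr1:35769929-35770228 on the minus strand.
MKI67: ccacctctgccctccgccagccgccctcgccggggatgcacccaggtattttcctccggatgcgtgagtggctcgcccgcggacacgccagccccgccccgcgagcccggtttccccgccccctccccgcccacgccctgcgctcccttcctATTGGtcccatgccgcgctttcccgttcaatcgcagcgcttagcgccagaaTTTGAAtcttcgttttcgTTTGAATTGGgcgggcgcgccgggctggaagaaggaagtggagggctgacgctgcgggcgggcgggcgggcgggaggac
ASPM: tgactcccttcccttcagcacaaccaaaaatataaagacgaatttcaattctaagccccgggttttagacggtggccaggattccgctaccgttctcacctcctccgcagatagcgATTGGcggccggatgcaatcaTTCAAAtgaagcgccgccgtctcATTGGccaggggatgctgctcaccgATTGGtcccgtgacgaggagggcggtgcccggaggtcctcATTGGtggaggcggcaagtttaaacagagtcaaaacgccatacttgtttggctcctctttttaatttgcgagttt
CCNB2: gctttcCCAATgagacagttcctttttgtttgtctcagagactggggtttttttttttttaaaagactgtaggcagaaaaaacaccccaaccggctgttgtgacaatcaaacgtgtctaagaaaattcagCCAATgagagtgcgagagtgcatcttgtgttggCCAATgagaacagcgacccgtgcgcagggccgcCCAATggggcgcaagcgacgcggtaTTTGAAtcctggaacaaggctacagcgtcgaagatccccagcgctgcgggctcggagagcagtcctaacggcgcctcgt
CDC6: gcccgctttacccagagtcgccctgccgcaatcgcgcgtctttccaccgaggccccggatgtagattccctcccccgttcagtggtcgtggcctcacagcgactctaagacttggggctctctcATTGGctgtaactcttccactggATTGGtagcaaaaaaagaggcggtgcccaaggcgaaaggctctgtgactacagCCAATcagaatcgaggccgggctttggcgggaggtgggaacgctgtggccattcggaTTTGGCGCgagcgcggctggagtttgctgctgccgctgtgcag
CLSPN: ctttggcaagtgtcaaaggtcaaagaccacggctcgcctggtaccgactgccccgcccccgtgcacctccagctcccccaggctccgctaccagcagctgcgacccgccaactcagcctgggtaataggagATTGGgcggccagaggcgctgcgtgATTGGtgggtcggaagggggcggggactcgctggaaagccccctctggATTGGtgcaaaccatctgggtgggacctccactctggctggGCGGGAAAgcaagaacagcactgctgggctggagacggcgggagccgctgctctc
Counted from the start, TTTGAA lay at -47 and -29 in MKI67 and at -29 in CCNB2, and its reverse TTCAAA at -113 in ASPM. In MKI67 the second TTTGAA shares 1 base with the reversed CCAAT box (ATTGG) at -24. CDC6 held TTTGGCGC at 7 and CLSPN the reversed site GCGGGAAA at -5.

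Of the 8 rule genes, 5 had a promoter in the table, and 5 of 5 held TTTGAA, against 15.4% of all 27305 promoters. Among genes of G2 and mitosis outside the rule, 28 of 44 (63.6%) held it, and among S phase genes 2 of 32 (6.25%). The E2F letters went the other way, with 2 of 44 (4.55%) of the G2 and mitosis genes, 16 of 32 (50%) of the S phase genes and 3.33% of all promoters. CCAAT did not separate the groups (30 of 44, or 68.2%, and 23 of 32, or 71.9%, against 35.7% of all promoters). A match of letters is a description of the window and not of a bound site. Of the retinal progenitor genes, 1 of 6 held TTTGAA and none of 6 the E2F letters.

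No single rule gene marked every dividing cell. TOP2A (chr17:40388525-40417896 in GENCODE 44 on GRCh38) had at least 5 reads in 133 of 138 dividing cells (96.4%), CENPF in 124 (89.9%), TPX2 in 122 (88.4%) and MKI67 (chr10:128096659-128126423) in 116 (84.1%). NUSAP1 was found in 109, UBE2C in 93, BIRC5 in 85 and ASPM in 81 (58.7%). Levels are given as CPM, the reads of a gene scaled to a fixed total of reads per cell, which do not correct for the length of a gene, so they are compared between cells and not between genes. For TOP2A they ran from 0 to 11150 CPM with a median of 1213, and for MKI67 from 0 to 7782 CPM with a median of 489. Of the 1838 other cells, 131 (7.13%) had at least 5 reads of TOP2A and 44 (2.39%) of MKI67. No read of UBE2C was found in the 381 cells of day 200 chip b, 4 dividing cells among them, while 3 of 5 dividing cells of chip a had it.

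The 8 genes did not fall into a clean on and off pattern. No rule gene passed in 1370 cells, 1 passed in 333, 2 in 86 and 3 in 49, while 4 passed in 30, 5 in 20, 6 in 20, 7 in 21 and all 8 in 47. At the threshold the summed reads of the rule genes overlapped: the 8 genes together had a median of 162 reads (23 to 1659) in the 49 cells with 3 genes and of 170 reads (32 to 1060) in the 30 cells with 4 genes. The S phase list was met by 28.6% of the former and 6.67% of the latter, and the second mitotic list by none and by 10.0%.

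The share of dividing cells was highest at day 60. It was 16.3% there (94 of 578 cells; 95% Clopper-Pearson interval 13.4 to 19.5%), 5.30% at day 90 (35 of 661; 3.72 to 7.29%), 1.40% on chip a of day 200 (5 of 356; 0.458 to 3.25%) and 1.05% on chip b (4 of 381; 0.287 to 2.67%). The intervals of day 60 and day 90 do not overlap each other or those of the day 200 chips, and both day 200 chips lie close together. Each chip has 19 or 20 columns, which are the samples of the series. All 19 columns of day 60 held dividing cells, 2 to 12 in each, against 13 of 20 at day 90 (0 to 8) and 4 of 20 on each day 200 chip. The number per column varied about as much as counting gives at day 60 (variance over mean 0.954), and more at day 90 (variance over mean 2.94), where 7 of 20 columns held none and 1 held 8. All intervals here cover counting error only: those of shares count the cells of a chip, and those of levels count reads without molecular identifiers. Since the day 90 columns varied more than counting gives, the interval of day 90 may be too narrow. A difference between days cannot be told apart from a difference between chips. The authors' filters also differed: the limit on reads per cell was lower at day 60 than on the other chips. Their limit on spike-in control RNA was looser at day 90, so the cells counted were not chosen alike on all chips. No test was made, because 1 chip per day at days 60 and 90 leaves no replicate. For differences within each chip, an exact two-sided sign-flip test over all 4 chips could not give a p below 0.125.

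**Figure D1:**
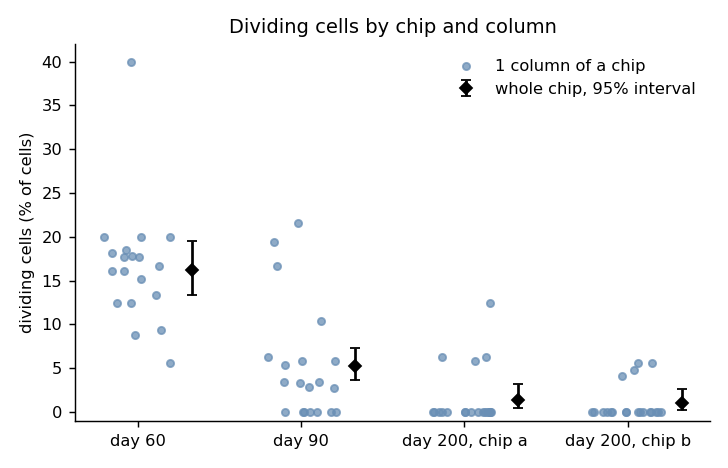
Dividing cells as a percentage of cells (y axis) for each chip (x axis). Blue points are the columns of a chip, and black diamonds are the whole chip with its 95% Clopper-Pearson interval. Day 60 sits at 16.3%, day 90 at 5.30%, and the day 200 chips at 1.40% and 1.05%; columns of day 90 spread from 0 upwards.

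Chip totals ran from 89204989 to 115731787 reads, and the dividing cells held 19452334 (day 60), 6484288 (day 90), 2072896 (chip a) and 1125256 (chip b) of them. Dividing cells were deeper than non-dividing progenitor cells at day 60 (median 191200 against 164600 reads) and on both day 200 chips (415100 against 274700 and 286700 against 236300), and about equal at day 90 (162100 against 165100). After each cell was thinned to 50000 reads, the median number of genes detected was 3341 against 3117 at day 60 and 3226 against 3010 at day 90. Mitochondrial genes took a median of 6.39% against 6.99% of the reads at day 60 and 4.05% against 4.01% at day 90. Of 25 cells that scrublet called doublets, none was dividing. However, 22 of them were on chip a, 2 on chip b, 1 at day 60 and 0 at day 90. The day 200 chips held only 5 and 4 dividing cells, so this does not show that the dividing cells are free of doublets. Day 60 used 38 cell barcodes and the other chips 40, 38 of them found on every chip, but no column and barcode occurred in more than 1 cell.

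Other genes of mitosis were found in the same cells. A second list of 8 mitotic genes that the rule does not use (CDK1, CCNB1, CCNB2, CCNA2, KIF11, HMMR, BUB1 and CDCA8) passed, with the same 5 reads in 4 genes, in 64 cells, all among the 138. They made up 47 of 94 dividing cells at day 60, 14 of 35 at day 90, 2 of 5 on chip a and 1 of 4 on chip b. CDK1, the kinase that drives entry into mitosis, was the most often found gene of the list (65.9% of dividing cells), and HMMR the least (25.4%). The share that passed the second list followed the number of rule genes: 10.0% of cells with 4 rule genes, 5.00% with 5, 40.0% with 6, 52.4% with 7 and 87.2% with 8, and no cell with 3 or fewer. Both lists mark the same stretch of the cycle, and the median depth was 167300 reads with 4 rule genes and 209800 with 8.

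A list of 8 S phase genes (RRM2, TYMS, PCLAF, MCM2, MCM5, CDC6, CLSPN and HELLS) passed in 78 cells, of which 45 were among the 138 (32.6%) and 33 were not. Of those 33, 25 came from day 60 and 14 had reads in exactly 3 rule genes. Among dividing cells, 26 passed both the mitotic and the S phase list, 38 the mitotic list alone, 19 the S phase list alone and 55 neither. A cell with reads of S phase genes could thus lie within or outside the rule.

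Most dividing cells carried retinal progenitor genes. The progenitor list (at least 5 reads in at least 4 of 8 genes, RAX, LHX2, SIX3, SIX6, SOX2, PAX6 and SFRP2 among them) passed in 107 of 138 dividing cells (77.5%; 69.7 to 84.2%) and in 48.9% of the other cells. By chip it passed in 71 of 94 at day 60 (75.5%, other cells 54.3%), 29 of 35 at day 90 (82.9%, others 48.9%), 3 of 5 on chip a and 4 of 4 on chip b. The remaining 31 dividing cells did not carry the list, so the 138 cells are called dividing cells here and only the 107 dividing progenitor cells.

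Markers of other cell types were also counted in the dividing cells. The list of postmitotic neurons (STMN2, DCX and others) passed in 24 of 94 at day 60 (25.5%, others 39.9%) and 5 of 35 at day 90 (14.3%, others 11.8%). The Müller glia list passed in 5 of 94 at day 60 (5.32%, others 10.5%), 9 of 35 at day 90 (25.7%, others 28%), 4 of 5 on chip a and 2 of 4 on chip b. The photoreceptor list passed in 10 of 138 dividing cells (7.25%, others 15.1%). Among the 183 cells of the series that carried the photoreceptor list without the progenitor list, 2 were dividing. Also pooled over the chips, the mesenchyme list passed in 10 dividing cells (7.25%, others 6.31%). The list of retinal pigment epithelium (RPE) passed in 5 (3.62%, others 8.00%) and the list of the integrated stress response in 20 (14.5%, others 12.1%). Pluripotency, blood and endothelium, and neural crest and Schwann lists passed in 0 of 138 cells each (interval up to 2.64%), and in 0 of 1838 other cells. Of the 8 genes of each list, only 6, 5 and 6 could be counted, and 4 had to pass. A pass was thus hard to reach, and its absence does not exclude such cells. POU5F1, PTPRC and SOX10 were not analysed here.

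HOX genes stood apart from the label of a retinal cell. These genes pattern the hindbrain and spinal cord and are not part of the forebrain and eye program. At least 3 of 18 HOX genes had 5 reads in 32 of 94 dividing cells of day 60 (34.0%; 24.6 to 44.5%) and in 40.1% of the other cells of that chip. At day 90 the list passed in 1 of 35 dividing cells (2.86%, others 5.75%), and at day 200 in none of 9.

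The dividing cells of day 60 therefore split into 55 with the progenitor list only, 16 with both lists, 16 with the HOX list only and 7 with neither. RAX, the eye field factor, had at least 5 reads in 39 of 55, 10 of 16, 1 of 16 and 2 of 7 of these cells, and NR2E1, an orphan nuclear receptor of retinal and brain progenitors, in 23, 5, 0 and 0. PAX6, which is also a gene of the hindbrain and spinal cord, was found in 50, 14, 8 and 4. In the same order HOXB3 was found in 6, 14, 12 and 1 cells, and HOXA5 in 1, 5, 11 and 0. Genes of division were found in most cells of all 4 subsets, CDK1 in 40, 13, 10 and 5 cells and MKI67 in 47, 12, 11 and 5, and the second mitotic list passed in 27, 10, 8 and 2. The neuron list passed in 10 of 55, 3 of 16, 7 of 16 and 4 of 7. COL3A1, a collagen of connective tissue, was at 6.42, 177, 1117 and 496 CPM in the summed reads of the 4 subsets, and the mesenchyme list passed in 1, 1, 3 and 1 cells.

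**Figure D2:**
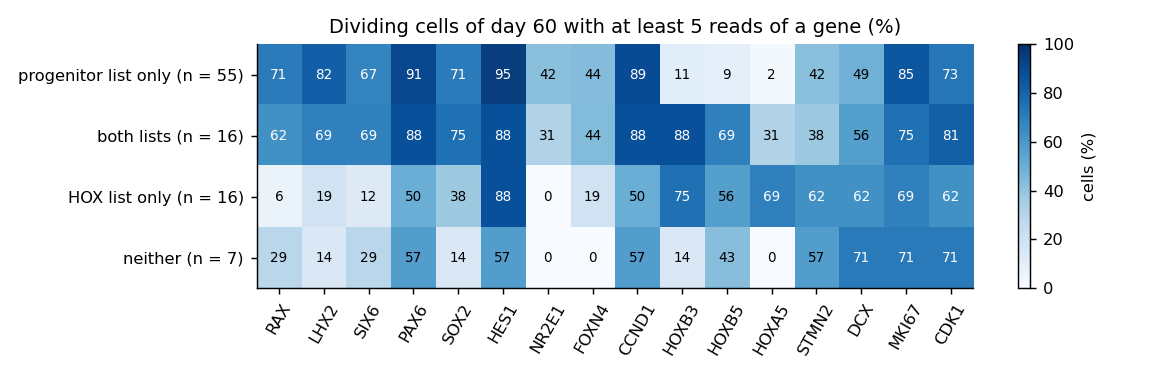
Percentage of cells with at least 5 reads of each gene (columns, colour and printed number) in the 4 subsets of the 94 dividing cells of day 60 (rows, with the number of cells). RAX and LHX2 were found mostly in the upper rows, HOXA5 in the rows with the HOX list, and MKI67 and CDK1 in all rows.

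Dividing progenitor cells were next set beside non-dividing progenitor cells, which carried the progenitor list and at most 1 rule gene with 5 reads. There were 71 against 203 such cells at day 60 and 29 against 287 at day 90. The 3 and 4 dividing progenitor cells of the day 200 chips were fewer than the 5 asked for and were not used. Reads were summed over each class, turned into CPM and compared as log2(CPM + 10), a scale that understates the change of low genes. A gene was called where it differed at least 2-fold in the same direction on both chips. All 23845 genes with any read were counted, without a minimum level. Of these, 254 were called higher in dividing cells (1.07%) and 65 lower (0.273%), with a median over all genes of 0.00 at day 60 and -0.04 at day 90.

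The rule used this contrast, so that all 8 rule genes were called higher is no result. Genes that the rule did not use but that share its stretch of the cycle moved with them, again as a description. Of 50 genes of G2 and mitosis 43 were higher, with medians of 3.13 at day 60 and 2.99 at day 90 (log2), and none was lower. Cyclin B1 (CCNB1) was at 486 against 18.3 CPM at day 60 and at 377 against 7.46 CPM at day 90, and CDK1 at 290 against 20.8 and 238 against 7.22 CPM. The Aurora kinases were higher too, AURKA at 184 against 2.29 CPM and AURKB at 205 against 1.33 CPM at day 60. PLK1, the Polo kinase of mitosis, missed the call with 10.2 against 0.310 CPM at day 60 and 15.4 against 0.939 CPM at day 90. TUBB4B, CTCF and G2E3 were among the other genes not called.

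S phase genes differed less. Of 43, 20 were called higher and none lower, with medians of 1.18 and 1.49 (log2). RRM2, a subunit of the enzyme that makes deoxynucleotides, was at 120 against 0.790 CPM at day 60 and at 51 against 0.0376 CPM at day 90. CLSPN was at 144 against 14.5 and 239 against 14.4 CPM, and CDC6 at 62 against 3.22 and 87.6 against 3.80 CPM. The helicase subunits MCM2 (32.8 against 18.7 CPM at day 60) and MCM5 (25.8 against 20.8) were not called. Of 18 histone and chromatin genes 7 were higher, HMGB2, an abundant chromatin protein of cycling cells, at 1310 against 125 and 1066 against 90.0 CPM, and HIST1H4C at 4772 against 488 and 1161 against 195 CPM. Multi-mapped reads were dropped in the counting, so genes with near-identical copies are uncertain: TUBB, a tubulin gene with many copies, was at 0.601 against 1.95 CPM at day 60.

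Genes of chromosome shape and of brain size moved with the mitotic genes. Condensins, the rings that compact mitotic chromosomes, were called higher for 6 of 8 subunits. SMC4 was at 946 against 74.7 CPM at day 60 and at 773 against 60.6 CPM at day 90, and NCAPG at 148 against 2.99 and 135 against 7.23 CPM. NCAPD3 (1.37 and 1.00 on the log2 scale, just under the call at day 90) and NCAPH2 (0.35 and 1.32) were not called. Of 11 centrosome and spindle genes mutated in primary microcephaly, 9 were higher, with the kinetochore motor CENPE at 331 against 17.6 CPM at day 60 and 538 against 9.38 at day 90. CIT, the citron kinase of cytokinesis, was at 112 against 5.61 and 254 against 8.08 CPM, and KNL1, a kinetochore scaffold, at 231 against 16.7 and 322 against 3.29 CPM. CEP152 (0.96 and 0.78) and MCPH1 (0.10 and -0.37) were not called.

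**Figure D3:**
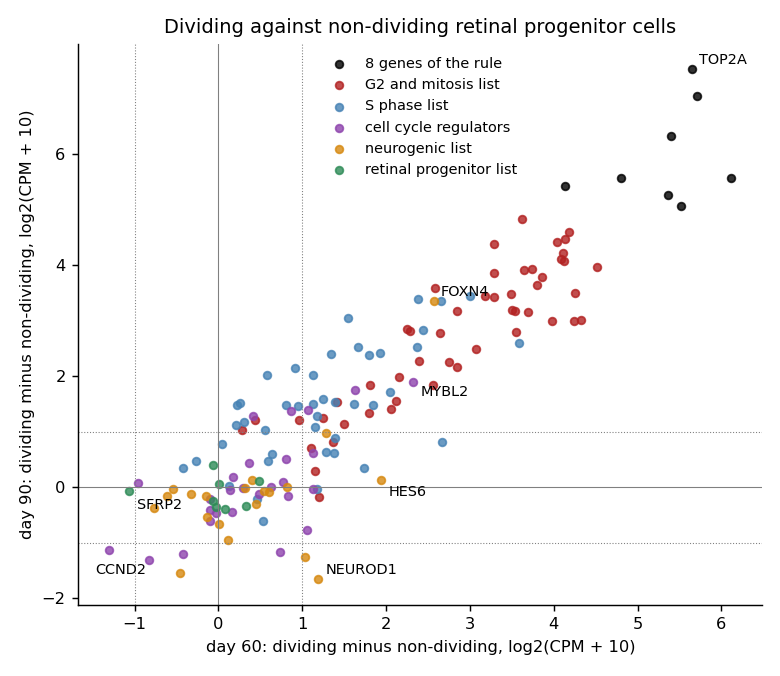
Each point is a gene, placed by its difference between dividing and non-dividing progenitor cells, log2(CPM + 10), at day 60 (x axis) and day 90 (y axis), coloured by gene list. Dotted lines mark the 2-fold call; mitotic genes lie far up on both axes, progenitor genes lie around 0, FOXN4 lies among the mitotic genes and CCND2 below -1 on both axes.

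Of 28 regulators of the cycle 4 were called higher and 1 lower, shares above the 1.07% and 0.273% of all genes. The latter include low genes, which are hard to call on this scale, so the 2 sets are not alike. Higher were MYBL2, a factor of the complex that drives mitotic genes (2.33 at day 60 and 1.90 at day 90, log2), the cyclin CCNE2 (1.13 and 1.5), and CDKN2C and CDKN2D, inhibitors of the cyclin D kinases. CDKN2C was at 38.9 against 5.87 CPM at day 60 and 64.2 against 12.1 at day 90, and CDKN2D at 55.6 against 21.3 and 76.7 against 22.9 CPM. With a pseudocount of 50 CPM, MYBL2 and CDKN2C were no longer called. Among the other inhibitors, CDKN1A was at 83.8 against 116 CPM at day 60 and 90.0 against 220 at day 90, and CDKN1B at 114 against 62.5 and 105 against 97.1. FOXM1, a driver of mitotic genes, differed by 1.13 at day 60 and by -0.04 at day 90.

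CCND2 was the regulator that was lower in dividing progenitor cells. It encodes cyclin D2, which acts in G1. Its level per cell ran from 0 to 856 CPM with a median of 32.8 in the 71 dividing progenitor cells of day 60, against 0 to 2692 CPM with a median of 181 in the 203 non-dividing ones. At day 90 the medians were 25.3 (0 to 858) and 128 CPM (0 to 2829). In the summed reads it was at 128 CPM (exact Poisson interval 122 to 133) against 329 (323 to 335) at day 60 and at 136 (127 to 146) against 311 CPM (307 to 316) at day 90, or -1.30 and -1.13 on the log2 scale. The cells overlapped widely, since 52.1% of dividing and 73.9% of non-dividing progenitor cells of day 60 had at least 5 reads, and 55.2% and 67.9% at day 90. Cyclin D1 (CCND1), the main D cyclin of the retina, was at 558 against 395 CPM at day 60 and at 135 against 147 CPM at day 90, or 0.49 and -0.12, and was not called. Without HOX-list cells CCND2 was at 124 against 350 CPM at day 60. With a pseudocount of 50 CPM its mean difference over the chips was -1.02, and it was no longer called.

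FOXN4 was the neurogenic gene that was called higher, 1 of 21, and none was lower, beside 1.07% and 0.273% of all genes. A single called gene is not a result about the list. It encodes a forkhead factor of progenitors that give rise to amacrine and horizontal cells (chr12:109277978-109309284). Its reads summed to 129 CPM (124 to 135) in dividing against 13.5 CPM (12.3 to 14.8) in non-dividing progenitor cells at day 60, and to 170 CPM (160 to 181) against 7.68 CPM (6.96 to 8.47) at day 90, differences of 2.57 and 3.35 (log2). Per cell it was at 0 in 36 of 71 dividing progenitor cells of day 60 and reached 1791 CPM, and at day 90 it was at 0 in 10 of 29, with a median of 21.1 and a highest level of 1547 CPM. Among non-dividing progenitor cells 185 of 203 and 269 of 287 were at 0. At least 5 reads were found in 43.7% (31.9 to 56%) of dividing and 6.40% (3.45 to 10.7%) of non-dividing progenitor cells at day 60, and in 44.8% (26.5 to 64.3%) and 3.48% (1.68 to 6.31%) at day 90. After thinning to 50000 reads, 40.9% against 5.91% at day 60 and 48.3% against 3.14% at day 90 kept 2 or more reads of FOXN4. Without HOX-list cells it was at 155 against 13.7 CPM at day 60.

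Seen from the other side, FOXN4 had at least 5 reads in 105 cells of the series, and 48 of these (45.7%) were dividing, 34 of 64 at day 60, 13 of 30 at day 90, 1 of 3 on chip a and 0 of 8 on chip b. Its share rose with the number of rule genes among progenitor-list cells of day 60, from 4.63% with none to 8.42% with 1, 18.3% with 2 to 3, 17.4% with 4 to 5 and 56.3% with 6 to 8. At day 90 the shares were 2.59, 7.27, 10.5, 50 and 42.1%, the last pair from 10 and 19 cells. Of the cells with the S phase list outside the rule, 9 of 25 had FOXN4 at day 60, against 30 of all 484 cells outside the rule on that chip (6.20%), and 2 of 8 on the other chips. Within the dividing progenitor cells of day 60, the second mitotic list passed in 24 of 31 cells with FOXN4 (77.4%; 58.9 to 90.4%) and in 13 of 40 without it (32.5%; 18.6 to 49.1%), but at day 90 in 6 of 13 and 7 of 16.

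HES6, which counters the Notch effector HES1, was more than 2-fold higher at day 60 but missed the call at day 90. HES6 was at 676 against 169 CPM at day 60 but at 203 against 184 CPM at day 90 (1.94 and 0.13), although cells with at least 5 reads were more frequent among the dividing cells on both chips (69% against 33.0%, and 55.2% against 31.4%). NR2E1 was at 88.7 against 34.6 and 78.4 against 35.1 CPM (1.15 and 0.97). ATOH7, the factor of ganglion cell formation, was low in both classes (31.5 against 36.1 CPM at day 60), as was NEUROG2 (9.01 against 3.89 CPM).

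**Figure D4:**
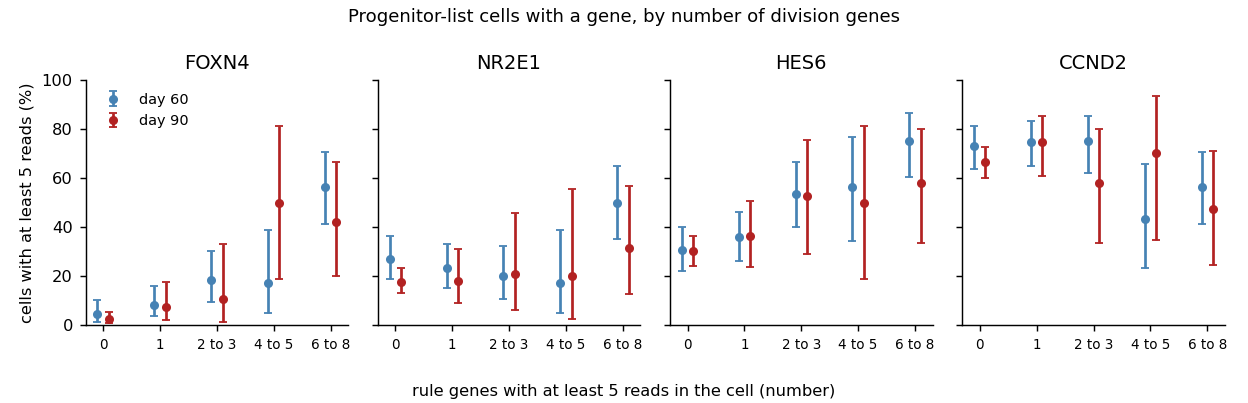
Percentage of progenitor-list cells with at least 5 reads of FOXN4, NR2E1, HES6 and CCND2 (y axis) by the number of rule genes with at least 5 reads (x axis), for day 60 (blue) and day 90 (red), with 95% Clopper-Pearson intervals. FOXN4 goes from 4.63% to 56.3% at day 60, while CCND2 lies lower in cells with many rule genes.

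Of the progenitor genes, 0 of 8 list genes and 0 of 17 further genes were called, which is close to what the 1.07% and 0.273% of all genes would give and is not a result about them; NR2E1, given above, missed the call narrowly. PAX6 was at 583 against 596 CPM at day 60 and 385 against 498 at day 90, SOX2 at 230 against 230 and 175 against 168, and the Notch effector HES1 at 2271 against 2207 and 2214 against 1499 CPM. SFRP2, a secreted modulator of Wnt signals, was at 413 against 873 CPM at day 60 and at 293 against 308 at day 90. The progenitor list was used to choose both classes, so likeness in its 8 genes is partly given by the choice. No gene was called in either direction on the lists of glia, RPE, mesenchyme, photoreceptors, HOX genes, stress or progenitor age, and NEFM, a neurofilament gene, was lower.

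Among genes on no list, those with the largest differences upward were also genes of division. PBK, a mitotic kinase, was at 207 against 0.310 CPM at day 60 and 179 against 1.09 at day 90. PRC1, which bundles microtubules of the spindle midzone, was at 470 against 20.5 and 558 against 20.4 CPM, and PTTG1, the securin that holds back separase, at 783 against 62.9 and 539 against 57 CPM. CEP55, ESCO2, PRR11, SGO2, CDKN3, SPAG5 and FANCD2 completed the 10.

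In the other direction 8 genes met the naming rule of at least 50 CPM in the higher class. TRH, the precursor of thyrotropin-releasing hormone, was at 58.9 against 210 CPM at day 60 and 46.4 against 200 CPM at day 90. PAPPA2, a protease that frees insulin-like growth factors, was at 14.8 against 68.8 and 6.84 against 58.1 CPM, and SELENOM, a selenoprotein of the endoplasmic reticulum, at 35.2 against 130 and 29.1 against 104 CPM. SPRY1, an inhibitor of growth factor receptor signals, was at 52 against 126 and 19.2 against 64.6 CPM. GOLGA5, SMIM10L2A, B4GAT1 and NMD3 were the others. With a pseudocount of 50 CPM, 7 of the 8, all but TRH, were no longer called.

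Dividing cells of day 90 were then set beside those of day 60, a comparison chosen after the data were seen. To keep the HOX cells apart, it took the dividing cells with the progenitor list and without the HOX list, 55 at day 60 and 29 at day 90. Of 5238 genes with at least 50 CPM, 836 were at least 2-fold higher at day 90 (16%) and 649 lower (12.4%), with a median of 0.07 (log2). Each day is 1 chip, so age and chip cannot be told apart, and the non-dividing progenitor cells without the HOX list (153 and 273 cells) are given beside each value.

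Genes of early progenitors were lower at day 90 in 3 of 5. IGF2BP1, an RNA-binding protein of early development, was at 162 CPM at day 60 and 50.8 at day 90 (non-dividing cells 83.1 and 18.7), IGF2BP2 at 319 and 122 (238 and 208), and IGF2BP3 at 50.3 and 15.2 (26.7 and 15.1). Of 3 late genes 2 were higher, the nuclear factors NFIB at 20.9 and 181 CPM (36.5 and 208) and NFIC at 18.6 and 73.1 (32.2 and 39.4). CCND1 was lower, at 627 and 135 CPM (420 and 147). The neuronal differentiation factor NEUROD1 was at 390 and 46 CPM in dividing cells and at 149 and 169 in non-dividing cells, and HES6 was at 831 and 203 CPM (143 and 193). OTX2, a factor of photoreceptors, bipolar cells and RPE, was at 70.7 and 216 CPM (65.2 and 437).

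Genes of other retinal lineages were also higher at day 90, with 6 of 6 RPE genes, 4 of 6 photoreceptor genes and 3 of 5 glial genes. DCT, a pigment enzyme, was at 57.3 and 302 CPM (57.3 and 594), PDE6H of cones at 21.5 and 465 (12.3 and 483) and SPP1 of glia at 207 and 909 (353 and 1019). The non-dividing cells moved likewise for these genes. Of the 29 dividing cells of day 90, 7 had at least 5 reads of DCT, 8 of PDE6H and 24 of SPP1. Over all dividing cells the summed level of the RPE list was 246 CPM at day 60 and 985 at day 90 (non-dividing progenitor cells 222 and 1431), and that of the photoreceptor list 202 and 1057 CPM (62.3 and 1369). The part of such cells' RNA in these differences was not tested.

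The largest differences on no list included FABP7, a fatty acid binding protein of neural progenitors and glia, at 2.62 and 73.9 CPM (1.47 and 156), and the vascular growth factor receptors KDR, at 1.36 and 102 CPM (13.3 and 84.1), and FLT1, at 0 and 67.8 (6.76 and 121). Lower were MDK, the growth factor midkine, at 857 and 83.3 CPM (1007 and 110), and MYBL1, a relative of MYBL2, at 150 and 11.1 CPM (48.7 and 15.4). SCARNA22, a small RNA of Cajal bodies, was at 982 and 21.6 CPM (766 and 23.1), with a drop of similar size in the non-dividing cells. NKAPD1 was at 95.3 and 4.62 CPM in dividing cells, but at 85.3 and 95.9 CPM in non-dividing cells.

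At day 200 there were 9 dividing cells, few enough to describe one by one. The 5 cells of chip a held 288642 to 575718 reads and 6, 6, 7, 4 and 8 rule genes, and the 4 cells of chip b 201184 to 350671 reads and 6, 7, 4 and 6 rule genes. The cell of chip a with 8 rule genes had 3735 reads of MKI67, 2106 of CCNB1 and 1215 of CDK1, and also 631 reads of RAX, 168 of PAX6, 353 of SOX2 and 1634 of SPP1. All 5 cells of chip a had SOX2, with 292, 91, 294, 301 and 353 reads, against 33, 1, 156 and 51 reads on chip b. FOXN4 had 257 reads in 1 cell of chip a and none in the other 8. NEUROG2 (195 reads) and HES6 (612 reads) were found together in 1 cell of chip b. Another cell of chip b carried TF (1520 reads) and RLBP1 (121 reads), which are genes of Müller glia, beside 6 rule genes.

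Against day 60, the dividing cells of both day 200 chips were at least 2-fold higher for 392 of 7052 genes (5.56%) and lower for 918 (13%), with medians over all genes of -0.26 on chip a and -0.13 on chip b. Asking for several cells, a requirement added after the data were seen (at least 2 cells of each day 200 chip, or 25% of the day 60 cells), left 142 higher and 587 lower. Glial genes were higher in 4 of 8, late genes in 2 of 5, and early genes were lower in 3 of 5. Neuronal genes were lower in 5 of 7 and HOX genes in 3 of 3. This comparison took all dividing cells and did not leave out HOX-list cells. At day 60, 32 of 94 carried the HOX list and 71 of 94 the progenitor list, while no dividing cell of day 200 carried the HOX list. The part of this mix of cells in the differences was not tested. With progenitor-list cells only, 24.3% of called genes were higher, against 29.9%.

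By chip, in the order of day 60, day 90, chip a and chip b, IGF2BP1 was at 143, 46.4, 0 and 17.8 CPM in dividing cells, with 82.8, 18.4, 8.66 and 7.08 CPM in non-dividing progenitor cells. HMGA2, a chromatin protein of young progenitors, was at 67.8, 24.8, 0 and 0 CPM (33.0, 11.3, 10.3 and 11.9). NFIB was at 71.2, 165, 268 and 310 CPM (47.2, 213, 204 and 275) and NFIX at 2.62, 11.7, 46.3 and 107 (2.26, 21.6, 54 and 54). SPP1 was at 172, 876, 1073 and 871 CPM (361, 995, 1758 and 2463), and WIF1, a Wnt inhibitor of late progenitors and glia, at 0.154, 31.8, 175 and 136 CPM (3.19, 83.7, 646 and 485). For all 6 genes day 60 and day 200 differed in the same direction in both classes. SPP1 and WIF1 were lower in dividing cells than in non-dividing progenitor cells on every chip. The dividing class here held all dividing cells, also those without the progenitor list, so the 2 classes differ in more than division. TF was at 1353 CPM on chip b, nearly all from 1 cell.

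**Figure D5:**
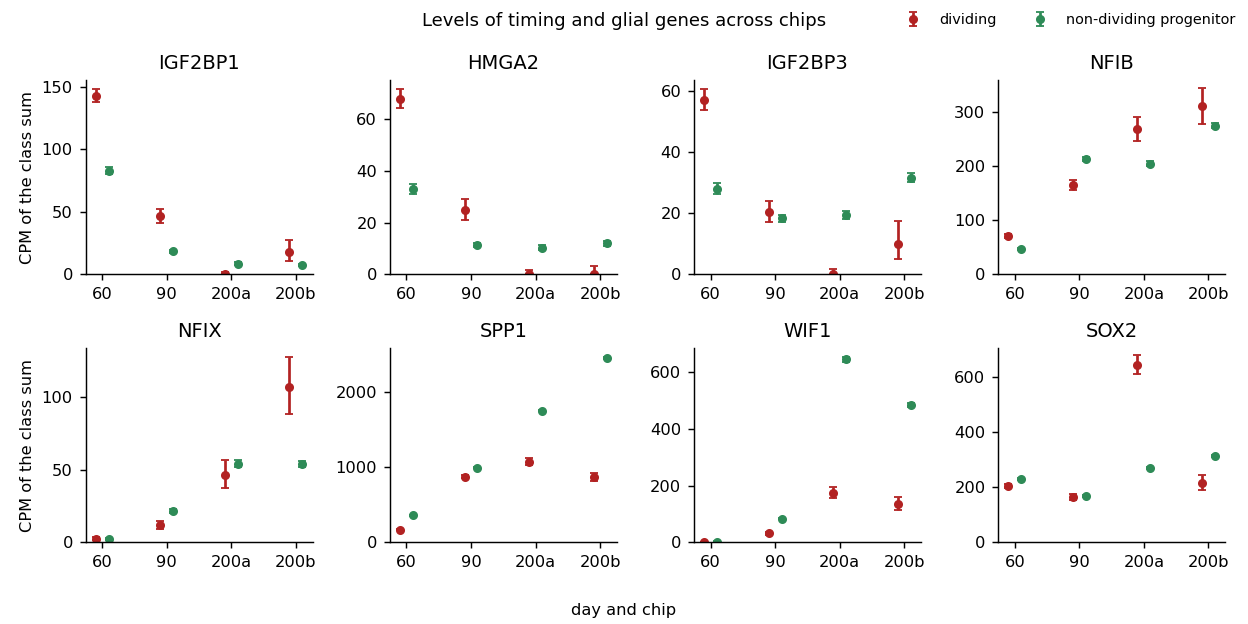
CPM of the summed reads of all dividing cells, with or without the progenitor list (red), and of non-dividing progenitor cells (green) on the 4 chips (x axis). Exact Poisson intervals give counting error, and each gene has 1 panel with its own y axis. IGF2BP1 and HMGA2 are lower on later chips and NFIB, NFIX, SPP1 and WIF1 higher, while SOX2 stands out on chip a.

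Cell cycle genes of the 9 cells are read against the 5.56% of all genes called higher and the 13% called lower. Of 36 S phase genes 8 were higher and 1 lower on both chips, TYMS at 127 CPM at day 60 and 269 and 455 CPM at day 200. Of 47 G2 and mitosis genes 7 were lower, a share near that of all genes, and none higher, with medians of 0.42 on chip a and -2.39 on chip b. CKAP2L, TTK, CDCA2 and HMMR had no read in any of the 9 cells, against 134, 159, 102 and 56.3 CPM at day 60. Such absences rest on 9 cells.

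Genes on no list gave the same picture of few cells. PRTFDC1, a relative of a purine salvage enzyme, was at 18.9 CPM at day 60 and at 318 and 273 CPM at day 200, in 4 of 5 and 2 of 4 cells (non-dividing cells 8.04, 28.7 and 37.5), and PHLDA1 at 20.0, 274 and 220 CPM, also in 4 and 2 cells (54.6, 200 and 198). EDNRB, an endothelin receptor, was at 4.42, 322 and 111 CPM in 3 and 1 cells (11.0, 46.1 and 36.7), whereas ARHGEF26-AS1, AC008040.1, TMEM217 and SAMD9L came from 1 cell on each chip. Lower was MGP, matrix Gla protein, at 1269 CPM at day 60 from 16 of 94 cells and at 0.965 and 5.33 CPM at day 200. In the 71 dividing progenitor cells of day 60 it was at 28.8 CPM, so most of its reads came from dividing cells without the progenitor list, and non-dividing progenitor cells had 16.9 CPM at day 60 and 8.56 and 450 CPM at day 200. ZKSCAN1 was at 210, 1.93 and 0 CPM in dividing cells, but at 284, 204 and 235 CPM in non-dividing progenitor cells.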

How the data were processed

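Single cells of retinal organoids were captured on Fluidigm C1 chips and sequenced full length (SMART-Seq v4). The authors trimmed reads with Trimmomatic 0.33, aligned them with STAR 2.4.0 to GRCh38.p7 with GENCODE annotation, counted reads per gene with HTSeq 0.6 in union mode, with no strand setting named, and removed poor cells and rare genes with Scater. Their limits on reads per cell and on spike-in control RNA differed between the days. The deposited table holds raw counts of reads for 1976 cells and 24415 rows, without molecular identifiers. Antisense partners cannot be told apart without strand, and multi-mapped reads were dropped. A row named GFP-Spike did not count towards the depth of a cell, and 24414 rows remained. Each of 79 samples is a chip column.

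From these counts, reads were summed per class and chip, scaled to CPM, and compared as log2(CPM + 10). A gene needed 50 CPM in 1 class for the comparisons between days. Intervals (95%) are exact Poisson or Clopper-Pearson. No test was made. Lists pass with 5 reads in 4 genes (3 for HOX). Named genes on no list were the 10 called genes per direction with the largest smallest difference over chips and at least 50 CPM in the higher class. The members and lists were chosen with earlier results of these data known. Alternatives were other rules for members, pseudocounts of 1 and 50 CPM, minimum levels, means over cells, TMM factors (edgeR 4.0.16, R 4.3.3), doublet removal, filters on depth and leaving out a chip. The HOX, thinned, several-cell and day 90 alternatives were added after the data were seen. Promoters are from RefSeq (GRCh38.p14), gene positions from GENCODE 44. Tools were Python 3.11.15, numpy 2.4.6, pandas 2.3.3, scipy 1.17.1, scanpy 1.11.5 and matplotlib 3.10.9. Only the difference and call between dividing and non-dividing progenitor cells were tried on simulated sums of reads. The rules for members and lists, the shares and the comparisons between days were not tried this way. Some listed genes, and results that need their names, do not appear in the text.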

Additional observations from a re-analysis of the deposited data

Results flagged for a closer look

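For 6 listed genes the difference was at least 2-fold in opposite directions on the day 60 and day 90 chips, and the difference between the chips was not tested. Their lists leaned the same way: of 21 neurogenic genes 14 were above 0 at day 60 and 4 at day 90. Of 8 mesenchyme genes 5 and 0 were above 0, and of 8 photoreceptor genes 6 and 0. The list medians (log2) at day 60 and day 90 were 0.40 and -0.15 (neurogenic), 0.28 and -1.63 (mesenchyme) and 0.29 and -1.09 (photoreceptor). Dividing minus non-dividing progenitor cells (log2) gave 1.19 at day 60 and -1.66 at day 90 for NEUROD1, and 1.03 and -1.25 for NEUROD4, both factors of neuronal differentiation. COL1A1 gave 2.01 and -2.41, and COL3A1 1.56 and -2.97. IMPG2 gave 2.32 and -1.67, and GNGT2 1.5 and -1.04, from 4 and 2 of the 71 dividing progenitor cells of day 60.

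The row named GFP-Spike, used in no comparison, had no read at day 60 or day 90 and reads in 163 of 356 cells of chip a and 95 of 381 cells of chip b at day 200. Of these, 2 and 1 were dividing cells. It had a read in 61 of 70 cells with the photoreceptor list on chip a and 41 of 48 on chip b, against 102 of 286 and 54 of 333 of the other cells. The name does not say whether the row counts the CRX reporter or an added control RNA.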

How the results depend on the processing

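Dividing and non-dividing cells were compared within each chip, which kept the pairing by chip. No test was made, since days 60 and 90 have 1 chip each and the columns of a chip are not replicates. The day 60 share of 16.3% was 13.2% with 10 reads per gene, 23.4% with 3 of 8 genes, 10.0% with 6 of 8, 8.13% by the second mitotic list and 21.0% in cells with 150000 reads and at most 10% mitochondrial reads. The day 90 share of 5.30% was 3.48% with 6 of 8 genes and 2.12% by the second list, which gave 0.263% on chip b and 0.407% at day 200; the order of day 60, day 90 and day 200 held in these settings. Counts of called genes depended on the pseudocount. For dividing against non-dividing cells, 254 higher and 65 lower became 558 and 1180 with 1 CPM and 98 and 1 with 50 CPM, so the share called higher went from 79.6% to 32.1% and 99.0%. At 50 CPM, 7 of the 8 named lower genes, CCND2, CDKN2C and MYBL2 lost the call, and over all alternatives single genes kept their side of the call in 457 cases, lost the call in 16, gained it in 6 and changed sign in 1, while shares and counts moved in 29 cases and stayed in 84. With at least 50 CPM required they were 166 and 10 (94.3% higher), and without HOX-list cells the lower genes numbered 109, 44 of the 65 among them (70.9% higher). Leaving out a chip, which drops the demand for both chips, gave 608 to 1077 higher and 369 to 1279 lower, and CCND1 turned from 0.49 on the day 60 chip alone to -0.12 on the day 90 chip alone. For day 200 against day 60, 392 higher and 918 lower became 144 and 417 with 50 CPM, 142 and 587 with several cells required, and 1593 to 1799 and 2155 to 2685 with 1 day 200 chip, and the lower genes numbered 2793 without a minimum level (12.9% of called genes higher, against 29.9%). TMM factors moved all genes by 0.05 and 0.03 in the first comparison and by -0.20 and -0.22 in the second. Other causes were not tested. Depth limits low genes, and 9 cells limit day 200.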
